A study of Canis lupus familiaris with 4 samples.

Results

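Interferon-stimulated and antigen processing genes were followed across 4 arrays of MDCK cells, a canine kidney epithelial line. The 40 genes were given as a list, each was taken by its probe set with exactly 1 gene symbol and the highest mean intensity over the 4 arrays, and all 40 had such a probe set, out of 15115 genes on the array. The study asked how HIF2α, the oxygen-regulated transcription factor subunit encoded by *EPAS1*, affects kidney epithelial cells. The 4 conditions were HIF2α-KD cells in hypoxia (1% O2), control cells in hypoxia, HIF2α-KD cells in normoxia (16% O2) and control cells in normoxia. All cells spent 24 h in normoxia and then 24 h at either oxygen level, and 1 Affymetrix canine array was run for each condition. A difference between a pair of arrays therefore has no error and no p-value here.

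HIF2α-KD cells carry a retroviral short hairpin RNA against *EPAS1*. They were selected for the retrovirus with puromycin, and whether a line was 1 clone is not stated in the sources used here. The control cells are called wild type in the sample labels and were taken as the cells that, per the study's methods, received the same kind of retrovirus with an empty hairpin cassette. The labels do not say which of the knockdown lines was used, and the study's text names HIF2α-KD#1 for the normoxic arrays. *EPAS1* had an intensity of 32.6 on the HIF2α-KD array and 116 on the control array in hypoxia, against 47.9 on the HIF2α-KD-labelled array and 44.6 on the control array in normoxia. By the brighter of its 2 probe sets, the only one read here, the target transcript was thus lower in HIF2α-KD cells in the hypoxic pair of arrays. It was not lower in the normoxic pair. The probe set was dim on both normoxic arrays. The background probe sets described below had 95th percentiles of 20.6 on the HIF2α-KD-labelled array and 27.2 on the control array there. A lower value thus had limited room to show. Each direction in normoxia is that of the label. The study checked the depletion of *EPAS1* mRNA in its lines separately by RT-qPCR, which is not part of the deposited arrays. The comparisons that do not use the normoxic HIF2α-KD-labelled array are HIF2α-KD against control in hypoxia and hypoxia against normoxia in control cells.

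Interferons are secreted proteins made when a cell detects foreign nucleic acid. They bind receptors that activate JAK kinases, which phosphorylate STAT proteins, and complexes that contain STAT2 and IRF9 switch on a large set of interferon-stimulated genes, whose products bind viral RNA, block translation, modify proteins with the ubiquitin-like protein ISG15 or degrade viral RNA. Interferons also raise the immunoproteasome and the TAP transporter, which cut proteins into peptides and carry them into the endoplasmic reticulum for loading onto MHC class I molecules. Most epithelial cells keep a low level of many of these transcripts without added interferon.

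The deposited values are linear intensities. The 63 reporter probe sets that stand for no canine gene had medians of 5.48 to 7.24 and 95th percentiles of 20.6 to 27.2 on the 4 arrays, and were used as background. Differences were taken as log2(intensity + 16), a scale that makes changes of dim genes look smaller than they are. A gene was kept if at least 1 of its 4 intensities reached 28.6, the table's median, and 9757 genes and 37 of the 40 members were kept. *OAS3* passed only through the HIF2α-KD array in hypoxia, so the filter itself made that array its brightest. Counts below that include *OAS3* carry this limit. Of the kidney epithelial markers, 7 or 8 of 9 were above the reporter 95th percentile on each array, with the keratin gene *KRT18* at 13256 to 13868 and the nephron transcription factor gene *PAX8* listed at 1 on all 4 arrays. Of the 11 immune cell markers 6 to 8 were above it, with summed intensities of 343 and 333 on the HIF2α-KD and control arrays in hypoxia and 367 and 323 in normoxia, and the pan-leukocyte gene *PTPRC* was at 31.9 to 39.4. Of the 9 hypoxia target genes with a probe set, 5 were above the reporter 95th percentile on all 4 arrays. Of these *ADM*, *ANKRD37*, *PDK1* and *VEGFA* were at least 2-fold higher in hypoxia under both cell labels, against 1.38% of all genes under the knockdown label and 3.04% in control cells, and *LOX* was higher by 0.55 and 0.92. *NDRG1* and *EGLN3* were within the background on both normoxic arrays and passed the filter only through hypoxia. *BNIP3* and *CA9* did not pass it. Their hypoxia differences were -0.21 and -0.30 under the knockdown label, and 0.42 and -0.23 in control cells.

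Of the 40 members, 35 were above the reporter 95th percentile on all 4 arrays. *OAS3* and the antiviral radical-enzyme gene *RSAD2* were above it on 2 arrays and *DHX58* on 3, while the nucleotide hydrolase gene *SAMHD1* and the RNA-editing gene *ADAR* were above it on none. *RSAD2*, *SAMHD1* and *ADAR* did not pass the filter, with intensities of 4.72 to 28.2, and are not among the 37. The plot of intensities by gene shows the other members from this range up to the light chain of MHC class I, *B2M*, whose 4 values were 10530 to 12560.

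**Figure D1:**
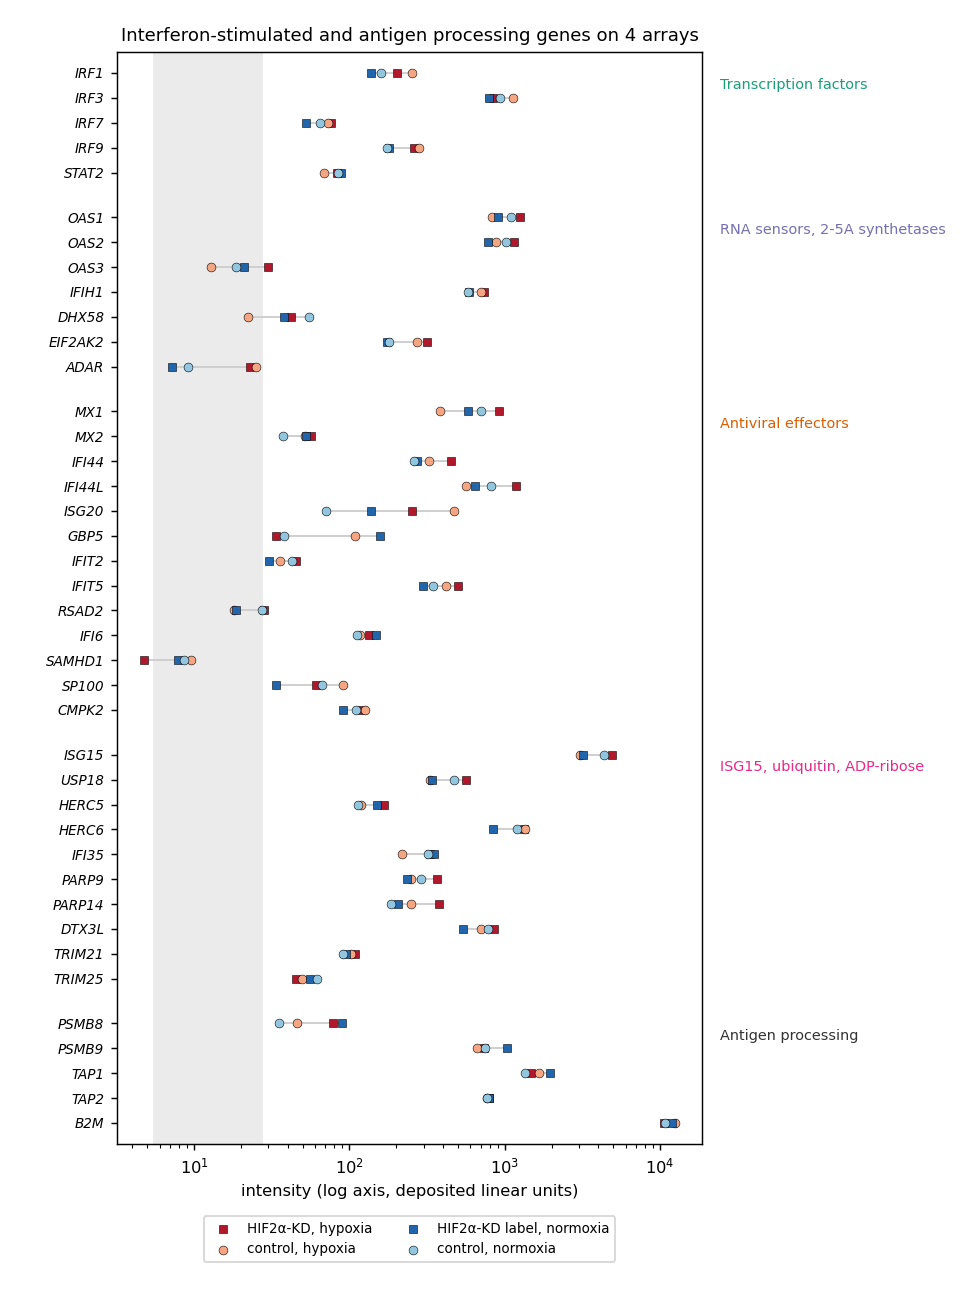
Intensity (log axis) of the 40 genes on the 4 arrays, 1 row a gene, grouped by role. Squares are arrays labelled HIF2α-KD and circles control arrays, red hypoxia and blue normoxia. The grey band runs from the lowest reporter median (5.48) to the highest reporter 95th percentile (27.2). There is 1 array per condition, so no error bars can be drawn.

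Across the 37 members, the HIF2α-KD array in hypoxia most often held the highest intensity of the 4. It was the brightest array for 20 members (54.1%), against 17.7% of all genes kept. The order of arrays was read after the values were seen, for members chosen with earlier results of these data known. The contrast with all genes is therefore a description only. The RNA was pooled from whole cultures, so that a difference in every cell and one in some of the cells cannot be told apart. The control array in hypoxia was brightest for 8 members (21.6%, against 35.1% of all genes) and the normoxic HIF2α-KD-labelled array for 7 (18.9%, against 21.2%). The control array in normoxia was brightest for 2 members (5.41%), *DHX58* and *TRIM25*, against 26.0% of all genes. With quantile, cyclic loess or median normalization, the HIF2α-KD array in hypoxia was brightest for 19 to 21 members. With no filter it was brightest for 21 of 40 members (52.5%), against 20.7% of all genes. By role, the HIF2α-KD array in hypoxia was brightest for 5 of 6 RNA sensors and 2-5A synthetases, 7 of 10 genes of the ISG15, ubiquitin and ADP-ribose group, 6 of 11 antiviral effectors, 1 of 5 transcription factors and 1 of 5 antigen processing genes. *OAS3* is among these synthetases and passed the filter only through that array. For antigen processing genes it was the normoxic HIF2α-KD-labelled array that was brightest for 3 of 5.

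**Figure D2:**
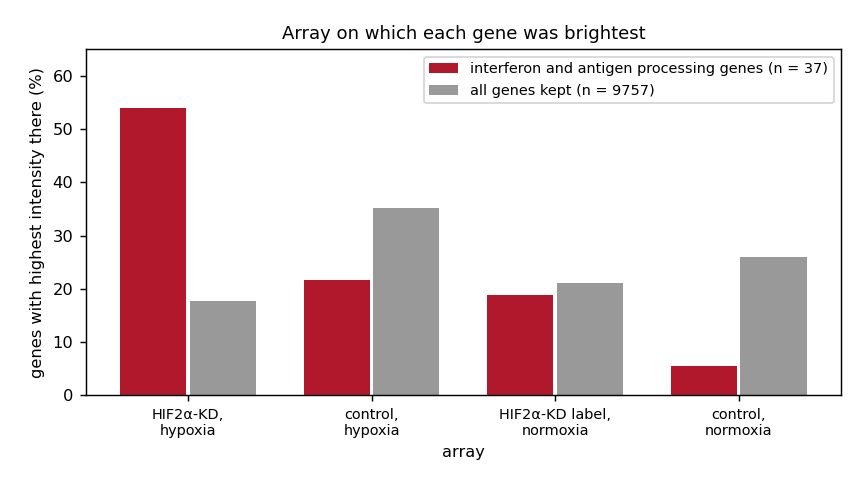
Share of genes (%) whose highest intensity fell on each array, for the 37 members kept (red) and all 9757 genes kept (grey). The HIF2α-KD array in hypoxia was brightest for 54.1% of the members and 17.7% of all genes.

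In hypoxia, *MX1* and *IFI44L* were at least 2-fold higher in HIF2α-KD than in control cells and *GBP5* was at least 2-fold lower. Among all genes kept, 0.102% were higher and 0.871% lower by this measure. At 1.5-fold, 8 members were higher (*MX1*, *IFI44L*, *USP18*, *ISG15*, *OAS3*, *DHX58*, *OAS1* and *PSMB8*), against 1.62% of all genes, and 2 were lower (*ISG20* and *GBP5*), against 4.92%. *OAS3* passed the filter only through the HIF2α-KD array in hypoxia, so its direction here was fixed by the filter. All genes split into 158 higher and 480 lower at 1.5-fold. After quantile normalization the split was 200 and 355, with 11 members higher and 2 lower. With a pseudocount of 64 it was 34 and 248, with 4 members higher and 2 lower, and with a filter at the 75th percentile of intensity 54 and 284, with 5 members higher and 1 lower. The median of the 37 members was 0.20, with 26 above 0, while the median of all genes was -0.04, with 44.3% above 0. With all 40 members and no filter the median was 0.18, with 27 above 0.

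In normoxia, *GBP5* and *PSMB8* were at least 2-fold higher under the knockdown label than in control cells and no member was at least 2-fold lower, against 0.615% and 0.543% of all genes. At 1.5-fold, *GBP5*, *PSMB8* and *ISG20* were higher and *SP100* was lower, against 2.45% and 3.55% of all genes. The median of the 37 members was -0.05, with 18 above 0, close to the median of all genes of -0.04, with 43.5% above 0. Without the filter the median of the 40 members was -0.08.

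The knockdown differences at the 2 oxygen levels share no array and can be set side by side. They had the same sign for 19 of 37 members (51.4%), against 55.3% of all genes. No member was at least 2-fold different the same way in both. Among all genes this was also rare, with 0.0102% higher and 0.143% lower in both. In 13 members (35.1%) the value was lower under the knockdown label in normoxia and higher in hypoxia, against 22.8% of all genes. These were *MX1*, *IFI44L*, *ISG15*, *USP18*, *OAS1*, *OAS2*, *DHX58*, *EIF2AK2*, *IFIT2*, *IFIT5*, *PARP9*, *DTX3L* and *IRF7*. A further 13 (35.1%) were higher in both, against 21.6% of all genes, 6 (16.2%) were lower in both, against 33.7%, and 5 (13.5%) were higher in normoxia and lower in hypoxia, against 22.0%. These 5 were *GBP5*, *ISG20*, *TAP1*, *B2M* and *IRF9*.

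**Figure D3:**
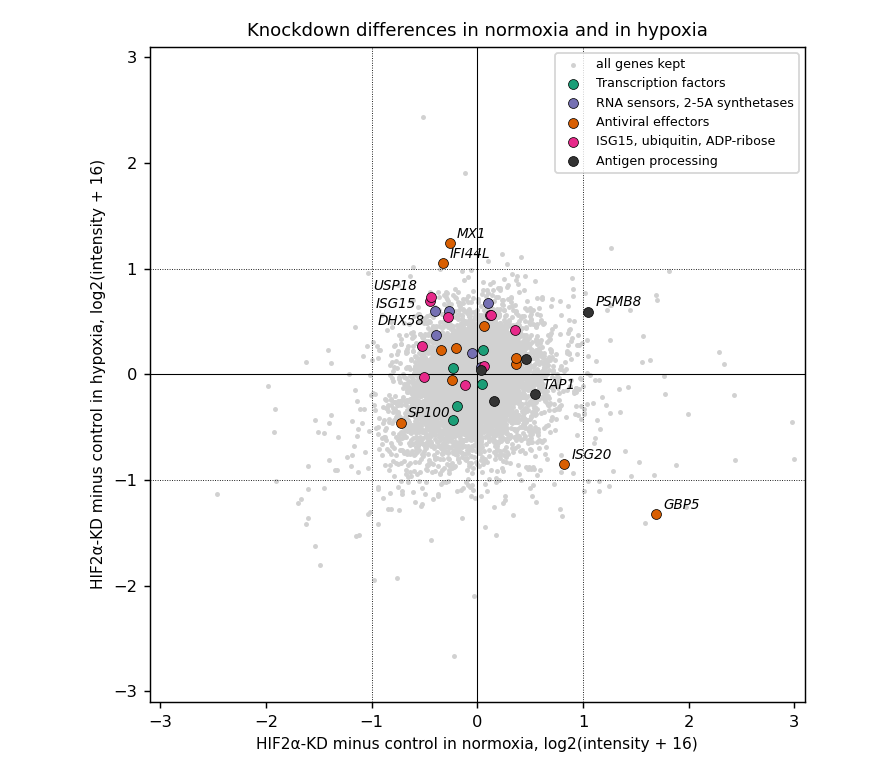
HIF2α-KD minus control on the scale of log2(intensity + 16), in normoxia (x) and in hypoxia (y), for all 9757 genes kept (grey) and the 37 members coloured by role. Dotted lines mark 2-fold. *MX1* and *IFI44L* lie above the 2-fold line in hypoxia and left of 0 in normoxia, and *GBP5* lies at 1.69 in normoxia and -1.32 in hypoxia.

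Subtracting the knockdown difference in normoxia from that in hypoxia gave a median of 0.25 over the 37 members, with 26 above 0, against 0.00 over all genes, with 49.6% above 0. This value uses all 4 arrays, and equals the hypoxia difference in HIF2α-KD cells minus that in control cells. It was added after the values were seen, and is a description only. It was at least 1 for 5 members (13.5%), against 0.758% of all genes: *MX1* at 1.504, *IFI44L* at 1.38, *USP18* at 1.17, *ISG15* at 1.14 and *DHX58* at 1.00. For *DHX58* the control array in hypoxia was within the background. It was -1 or below for *GBP5* at -3.01 and *ISG20* at -1.67, against 1.79% of all genes. It was above 0 for 10 of 10 genes of the ISG15, ubiquitin and ADP-ribose group and for 6 of 6 RNA sensors and 2-5A synthetases, but for 2 of 5 transcription factors and 1 of 5 antigen processing genes. Some of these values were close to 0, at 0.02 for *TRIM21* and *TRIM25*, 0.04 for *IFIH1* and 0.07 for *HERC5*. The dimmest probe sets of *OAS1* and *IFI35* had the opposite sign, with knockdown differences of -0.07 and 0.10 in hypoxia and 0.30 and 0.19 in normoxia. The synthetases include *OAS3*, which passed the filter only through the HIF2α-KD array in hypoxia. The normoxic HIF2α-KD-labelled array, where *EPAS1* was not lower, enters every one of these values.

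In control cells, *ISG20* and *GBP5* were at least 2-fold higher in hypoxia than in normoxia and no member was at least 2-fold lower, against 3.04% and 0.533% of all genes. At 1.5-fold 4 members were higher (*ISG20*, *GBP5*, *IRF9* and *IRF1*), against 10.2%, and 2 were lower (*DHX58* and *MX1*), against 4.31%. With quantile normalization this turned to 2 members higher and 4 lower, and the split of all genes was 786 higher and 602 lower in place of 995 and 421. The members' median was 0.13, with 22 above 0, and that of all genes was 0.03, with 53.2% above 0. Under the knockdown label, no member was at least 2-fold higher in hypoxia and *GBP5* was at least 2-fold lower, against 1.38% and 0.42% of all genes. At 1.5-fold 13 members were higher, against 5.47%, and *GBP5* alone was lower, against 2.69%. The members' median was 0.40, with 28 above 0, and that of all genes was 0.02, with 53.2% above 0. The hypoxia differences had the same sign under both labels in 21 of 37 members (56.8%), against 65.9% of all genes. In 17 members (45.9%) the value was higher in hypoxia under both labels, against 36.1% of all genes. In 4 (10.8%) it was lower under both, against 29.8%.

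**Figure D4:**
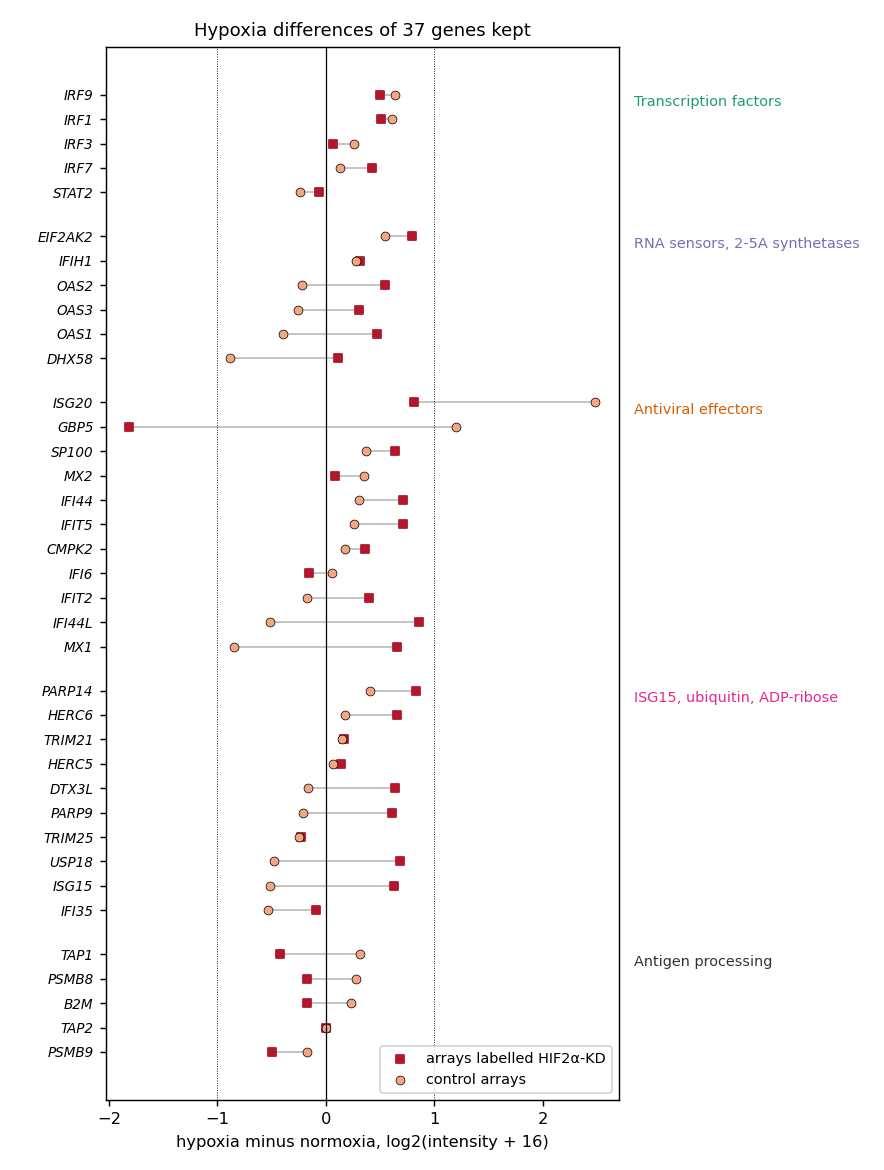
Hypoxia minus normoxia on the scale of log2(intensity + 16) for the 37 members kept, grouped by role, under the HIF2α-KD label (red squares) and in control cells (pale circles). Dotted lines mark 2-fold. *ISG20* reaches 2.49 in control cells, and *GBP5* lies at -1.81 under the knockdown label and 1.20 in control cells.

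The antiviral effectors included the members with the largest differences. *MX1*, a dynamin-like GTPase that blocks viral ribonucleoproteins, had an intensity of 925 on the HIF2α-KD array and 381 on the control array in hypoxia, against 581 and 699 in normoxia. Its highest value was thus on the HIF2α-KD array in hypoxia and its lowest on the control array in hypoxia, and it was 2.37-fold higher under knockdown in hypoxia on the scale used (1.24 in log2) and differed by -0.26 in normoxia. *IFI44L*, an interferon-induced gene of the same family as *IFI44*, had the same order of arrays. Its intensity was 1190 on the HIF2α-KD array and 567 on the control array in hypoxia, and 648 and 817 in normoxia. The knockdown difference of *IFI44L* was 1.05 in hypoxia and -0.33 in normoxia, and its other 2 probe sets gave 1.12 and 1.05 in hypoxia and -0.42 and -0.54 in normoxia. Their neighbouring relatives differed less in hypoxia. *MX2*, a dimmer gene at 37.5 to 56.8, differed by 0.10 in hypoxia and 0.36 in normoxia. *IFI44* differed by 0.46 and 0.06, and its second probe set by 0.69 and 0.34.

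*GBP5*, a GTPase that acts on pathogen-containing vacuoles and inflammasomes, ran the other way. Its intensity was 33.6 on the HIF2α-KD array and 108 on the control array in hypoxia, against 158 on the HIF2α-KD-labelled array and 37.9 on the control array in normoxia. It was therefore high on the control array in hypoxia and on the normoxic HIF2α-KD-labelled array, and lower on the other pair of arrays. The knockdown difference was -1.32 in hypoxia and 1.69 in normoxia, and its second probe set gave -0.99 and 1.21. *ISG20*, a 3′ to 5′ exonuclease of single-stranded RNA, had 253 on the HIF2α-KD array and 469 on the control array in hypoxia, against 137 and 70.4 in normoxia. Both hypoxic arrays were above both normoxic arrays, with hypoxia differences of 0.81 under the knockdown label and 2.49 in control cells.

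*SP100*, a component of PML nuclear bodies, had 61.3 on the HIF2α-KD array and 90.2 on the control array in hypoxia, against 33.8 and 66.4 in normoxia. It was lower under the knockdown label at both oxygen levels, by 0.46 in hypoxia and 0.73 in normoxia on the log2 scale. Its other kept probe sets gave -0.04 and -0.17 in hypoxia and -0.76 and 0.17 in normoxia, so that they did not share 1 sign. The RNA-binding proteins of the IFIT family gave smaller values. *IFIT5* had 498 on the HIF2α-KD array and 417 on the control array in hypoxia, against 299 and 346 in normoxia, and *IFIT2* was at 30.3 to 45.0. The mitochondrial kinase gene *CMPK2*, next to *RSAD2* in the assembly UU_Cfam_GSD_1.0, was at 90.2 to 125, and the cell survival gene *IFI6* at 112 to 149.

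**Figure D5:**
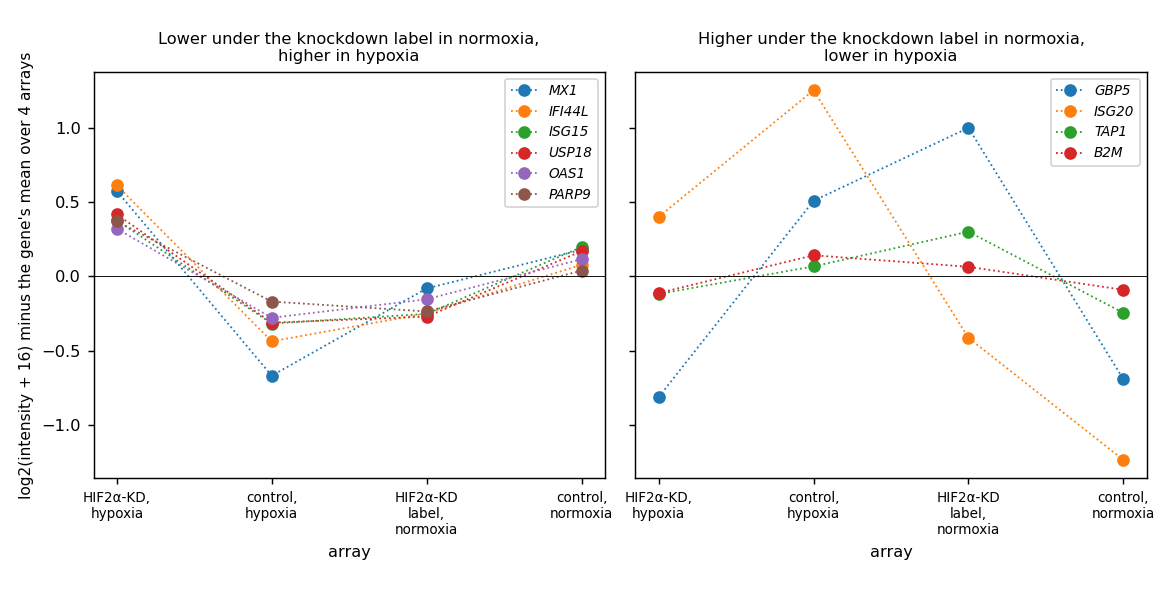
log2(intensity + 16) minus each gene's mean over the 4 arrays, for 6 of the 13 members lower under the knockdown label in normoxia and higher in hypoxia (left) and for 4 of the 5 with the opposite pair of signs (right). Dotted lines only join the points of 1 gene. On the left all 6 genes are highest on the HIF2α-KD array in hypoxia, and on the right *GBP5* is highest on the normoxic HIF2α-KD-labelled array and *ISG20* on the control array in hypoxia.

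The ISG15 pathway gene pair *ISG15* and *USP18* had the directions of *MX1*. ISG15 is joined to target proteins by the ligase HERC5 and removed by the protease USP18, which also dampens the interferon receptor. *ISG15* had an intensity of 4923 on the HIF2α-KD array and 3036 on the control array in hypoxia, against 3177 and 4344 in normoxia. The knockdown difference was 0.69 in hypoxia and -0.45 in normoxia, and the second *ISG15* probe set gave 0.86 and -0.47. *USP18* had 560 and 331 in hypoxia and 341 and 469 in normoxia on the HIF2α-KD and control arrays, with differences of 0.73 and -0.44. *ISG15* and *USP18* thus had their 2 higher values on the HIF2α-KD array in hypoxia and the control array in normoxia. *HERC5* differed by 0.42 in hypoxia and 0.36 in normoxia, with 166 on the HIF2α-KD array and 119 on the control array in hypoxia, and 149 and 113 in normoxia. *HERC6*, a related ligase beside it in the assembly, had 1337 on the HIF2α-KD array and 1360 on the control array in hypoxia, and 841 and 1198 in normoxia. It was lowest on the normoxic HIF2α-KD-labelled array, with a difference of -0.50 there and -0.02 in hypoxia.

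The ADP-ribosyltransferase genes *PARP9* and *PARP14* and the ubiquitin ligase gene *DTX3L*, which forms a complex with PARP9, lie close together in the same assembly, and *PARP9* and *DTX3L* are direct neighbours. *PARP9* had 368 on the HIF2α-KD array and 248 on the control array in hypoxia, and 236 and 289 in normoxia. *DTX3L* had 847 and 699 in hypoxia and 539 and 783 in normoxia, and *PARP14* had 377 and 250 in hypoxia and 204 and 185 in normoxia, on the HIF2α-KD and control arrays. By the chosen probe sets, the highest value of all 3 genes was that of HIF2α-KD cells in hypoxia. The knockdown differences were 0.54 for *PARP9*, 0.27 for *DTX3L* and 0.56 for *PARP14* there, and -0.28, -0.52 and 0.13 in normoxia. The second, dimmer probe set of *DTX3L* gave 0.0003 in hypoxia and -0.29 in normoxia. It was highest on the control array in normoxia, at 69.4. *IFI35*, a partner of the interferon-induced protein NMI, had 329 on the HIF2α-KD array and 218 on the control array in hypoxia, and 350 and 321 in normoxia. It was lowest on the control array in hypoxia, and its 3 other probe sets were higher by 0.10 to 0.53 in HIF2α-KD than in control cells in hypoxia. The ubiquitin ligase genes *TRIM21*, an antibody receptor in the cytosol, and *TRIM25*, which acts on the sensor RIG-I, differed by -0.12 to 0.08 under knockdown by their chosen probe sets. The second *TRIM21* probe set gave 0.22 in hypoxia and 0.17 in normoxia.

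Among the sensors, the 2-5A synthetases make the second messenger that activates the ribonuclease RNase L, and their 3 genes follow each other in the assembly. *OAS1* had an intensity of 1261 on the HIF2α-KD array and 827 on the control array in hypoxia, against 903 and 1092 in normoxia. *OAS2* had 1141 and 879 in hypoxia, and 775 and 1023 in normoxia, on the HIF2α-KD and control arrays. Both were highest on the HIF2α-KD array in hypoxia, with knockdown differences of 0.60 for *OAS1* and 0.37 for *OAS2* in hypoxia and of -0.27 and -0.39 in normoxia. Of the 4 other *OAS1* probe sets, 3 gave 0.51 to 0.72 in hypoxia and -0.63 to -0.19 in normoxia, and the dimmest gave -0.07 and 0.30. *OAS3* was at 12.8 to 29.9.

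*DHX58*, the RIG-I-like helicase LGP2, had 42.3 on the HIF2α-KD array and 22.4 on the control array in hypoxia, against 37.8 and 54.9 in normoxia. The control array in hypoxia was below its reporter 95th percentile of 25.0, so that the hypoxia difference of -0.89 in control cells rests on a value within the background. The same holds for the knockdown difference of 0.60 in hypoxia and the difference of the knockdown differences of 1.00. Its other probe set, too dim to be kept, gave knockdown differences of 0.32 in hypoxia and 0.66 in normoxia. *IFIH1*, the long double-stranded RNA sensor MDA5, had 736 on the HIF2α-KD array and 701 on the control array in hypoxia, and 590 and 576 in normoxia. *EIF2AK2*, the kinase PKR that halts translation on binding double-stranded RNA, had 313 on the HIF2α-KD array and 271 on the control array in hypoxia, and 174 and 181 in normoxia. For both, the 2 hypoxic arrays were above the 2 normoxic arrays, with hypoxia differences under the knockdown label and in control cells of 0.31 and 0.28 for *IFIH1* and of 0.79 and 0.54 for *EIF2AK2*.

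The 5 transcription factors had a median knockdown difference of -0.09 in hypoxia and -0.20 in normoxia, and a median hypoxia difference of 0.43 under the knockdown label and 0.26 in control cells. *IRF9*, which binds DNA in a complex with STAT2, had an intensity of 261 on the HIF2α-KD array and 279 on the control array in hypoxia, against 179 and 174 in normoxia. *IRF1*, an activator of immunoproteasome and antigen processing genes, had 203 on the HIF2α-KD array and 253 on the control array in hypoxia, against 137 and 160 in normoxia. Both hypoxic values exceeded both normoxic values, by 0.50 and 0.64 for *IRF9* and by 0.51 and 0.61 for *IRF1* under the knockdown label and in control cells. The other kept probe set of *IRF9* gave -0.09 and 0.17, and those of *IRF1* gave 0.14 and 0.55 under the knockdown label and 1.07 and 1.21 in control cells. *IRF3*, which induces interferon β, had 835 and 1129 in hypoxia, and 795 and 938 in normoxia, on the HIF2α-KD and control arrays. It was lower under the knockdown label at both oxygen levels, by 0.43 in hypoxia and 0.23 in normoxia, and its second probe set gave -0.22 and 0.23. *IRF7*, the amplifier of type I interferon, was at 52.6 to 76.3. *STAT2* was at 68.7 to 87.7, and was lower in hypoxia by 0.24 in control cells. Its 3 other kept probe sets were all higher there, by 0.38, 0.80 and 0.82.

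None of the 5 antigen processing genes was lower under the knockdown label in normoxia and higher in hypoxia, as *MX1* and *ISG15* were. *TAP2*, *PSMB8*, *TAP1* and *PSMB9* follow each other without another coding gene between them in the assembly, and encode the peptide transporter and 2 catalytic subunits of the immunoproteasome. *PSMB8* had 77.8 on the HIF2α-KD array and 46.1 on the control array in hypoxia, against 89.8 and 35.2 in normoxia, and was thus higher under the knockdown label at both oxygen levels, by 0.60 and 1.05. Its second probe set gave 0.32 and 0.73. *PSMB9* had 730 on the HIF2α-KD array and 660 on the control array in hypoxia, and 1033 and 746 in normoxia. *TAP1* had 1466 on the HIF2α-KD array and 1670 on the control array in hypoxia, and 1966 and 1341 in normoxia. *PSMB9* and *TAP1* were highest on the normoxic HIF2α-KD-labelled array, with knockdown differences there of 0.46 and 0.55 and, in hypoxia, of 0.14 and -0.19. The other *TAP1* probe sets gave 0.53 and 0.63 in normoxia and -0.10 and 0.12 in hypoxia. *TAP2* varied little between arrays, at 767 to 790. *B2M* had 10530 on the HIF2α-KD array and 12560 on the control array in hypoxia, and 11903 and 10687 in normoxia, with differences of -0.25 and 0.16, and its second probe set gave -0.29 and 0.26. For comparison, the subunits that PSMB8 and PSMB9 replace in the standard proteasome are encoded by *PSMB5* and *PSMB6*, which differed by -0.07 to 0.09 under knockdown.

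A fit of all 4 arrays with limma, with oxygen and cell label as additive terms, leaves 1 residual degree of freedom and takes it that each difference is the same at both levels of the other factor. For the knockdown term it called 0.0% of all genes and 0 of 37 members at an adjusted p of 0.05. The smallest adjusted p of a member was 0.218, for *PSMB8*, and 3 members (*PSMB8*, *SP100* and *HERC5*) were under 0.05 before adjustment, as were 9.62% of all genes. For the oxygen term the limma fit called 2.87% of all genes and 0 members. Among the members, the smallest adjusted p in limma was 0.0625 for *ISG20*, with a fitted hypoxia difference of 1.65 (SE 0.35), followed by 0.0665 for *EIF2AK2* at 0.67. Before adjustment 9 members were under 0.05 (*ISG20*, *EIF2AK2*, *IRF9*, *IRF1*, *PARP14*, *IFI44*, *SP100*, *IFIT5* and *HERC6*), as were 20.6% of all genes, and all 9 were higher in hypoxia. For genes such as *MX1* and *GBP5*, whose knockdown difference had opposite signs at the 2 oxygen levels, the additive assumption does not hold in the values, and their spread enters the residual.

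Other genes of the pathway were read from lists that hold none of the 40 members. Among interferons and their receptors, the interferon genes *IFNB1*, *IFNG* and *IFNL1* did not pass the filter, with intensities of 17.0 to 27.4, 1.00 to 2.46 and 3.66 to 16.4. Of the 6 genes of that list kept, 2 were higher under knockdown in hypoxia (median -0.28) and 6 were higher in normoxia (median 0.29). *IL10RB*, a receptor chain for type III interferons, had 698 on the HIF2α-KD array and 909 on the control array in hypoxia, and 985 and 482 in normoxia, with a knockdown difference of -0.37 in hypoxia and 1.01 in normoxia. Of 9 genes of interferon signal transduction kept, 0 were higher and 9 lower under knockdown in hypoxia, with a median of -0.45, where 44.3% of all genes were above 0. In control cells 9 were higher in hypoxia, with a median of 0.50, where 53.2% of all genes were above 0. The kinase gene *TYK2* of that list had 68.7 on the HIF2α-KD array and 114 on the control array in hypoxia, and 63.4 and 41.1 in normoxia, with a hypoxia difference of 1.19 in control cells. The 7 genes of nucleic acid sensing kept had a median of -0.12 under knockdown in hypoxia.

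Of 22 other interferon-stimulated genes kept, 9 (40.9%) were higher under knockdown in hypoxia, with a median of -0.09, where 44.3% of all genes were above 0. In normoxia 12 (54.5%) were higher, with a median of 0.04, where 43.5% of all genes were above 0. The helicase gene *DDX60* was at least 2-fold higher in hypoxia under both labels, by 1.37 under the knockdown label and 1.44 in control cells, with 290 on the HIF2α-KD array and 343 on the control array in hypoxia, and 103 and 116 in normoxia. *GBP1*, a relative of *GBP5*, was lower in hypoxia by 1.02 under the knockdown label. It had 28.4 on the HIF2α-KD array and 33.79 on the control array in hypoxia, and 74.1 and 31.05 in normoxia. Only the normoxic HIF2α-KD-labelled array was well above the background. The reporter 95th percentiles of the other arrays were 24.2 to 27.2. Of 19 other antigen processing and presentation genes kept, 7 (36.8%) were higher under knockdown in hypoxia, with a median of -0.15, where 44.3% of all genes were above 0. The MHC class II gene *DLA-DRA* had 1439 on the HIF2α-KD array and 2902 on the control array in hypoxia, and 1676 and 2785 in normoxia, and was lower under the knockdown label by 1.00 and 0.73. In these 5 lists the median under knockdown in hypoxia was thus below 0, against 0.20 for the 37 members and -0.04 for all genes kept.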

How the data were processed

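Total RNA of each condition was labelled by the authors with an Affymetrix 3′ kit and hybridised to 1 canine array. The deposited table holds 1 linear intensity for each of 42924 probe sets and array. For the authors' software, background correction, summarization and scaling, the sources used here give nothing. Genes were named from the platform annotation, where 29254 probe sets carry 1 gene symbol, 439 several and 13167 none, and a further 64 are reporters, of which 63 dim ones served as background. Intensities were turned into log2(intensity + 16), and a 2-fold difference was counted without a test. The 40 members had 78 probe sets, and 21 members had more than 1. Other kept probe sets of a member had the sign of the chosen one in 24 to 26 of 32 cases per comparison.

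The members and lists were chosen with earlier results of these data known. Values on all arrays were given for members at least 2-fold different in a comparison, for the 2 largest differences in each direction, and for the 2 brightest of each role. Values on all arrays of the other members, the order of arrays and the difference of the knockdown differences were added after the values were seen. The limma fit used a mean-dependent prior and Benjamini-Hochberg adjustment over 9757 genes, and was tested on simulated data. R 4.3.3, limma 3.58.1, Python 3.11.15, numpy 2.4.6, pandas 2.3.3 and matplotlib 3.10.9 were used. The alternatives were 3 other normalizations (quantile, cyclic loess and median centring), pseudocounts of 1 and 64, a filter at 175 (the 75th percentile) or none, averaging the probe sets of each gene, a 1.5-fold mark, and limma with robust moderation or no trend. Neighbouring genes come from the RefSeq assembly UU_Cfam_GSD_1.0. No coordinates are given.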

Additional observations from a re-analysis of the deposited data

Results flagged for a closer look

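For 7 members the differences under the same contrast had opposite signs in the 2 conditions and lay at least 1 apart on the log2 scale. The knockdown difference in hypoxia minus that in normoxia was 1 or above for 5 of them, against 0.758% of all genes, and -1 or below for 2, against 1.79% of all genes. With 1 array in each condition these differences between conditions were not tested, and each of them involves the normoxic HIF2α-KD-labelled array, where *EPAS1* was not lower.

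The knockdown difference in hypoxia and in normoxia was 1.24 and -0.26 for *MX1*, 1.05 and -0.33 for *IFI44L*, 0.69 and -0.45 for *ISG15*, 0.73 and -0.44 for *USP18*, and 0.60 and -0.40 for *DHX58*. It was -1.32 and 1.69 for *GBP5*, and -0.85 and 0.82 for *ISG20*.

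The hypoxia difference under the knockdown label and in control cells was 0.66 and -0.85 for *MX1*, 0.86 and -0.52 for *IFI44L*, 0.63 and -0.51 for *ISG15*, 0.69 and -0.48 for *USP18*, 0.12 and -0.89 for *DHX58*, and -1.81 and 1.20 for *GBP5*.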

How the results depend on the processing

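With 1 array per condition no error of a difference can be given, and dim genes such as *OAS3* and *DHX58* lie near the reporter probe sets. No paired analysis was possible because each condition has 1 array and the labels give no replicate numbers, and no replicate could be left out. Counts at least 2-fold different depended on the settings. Under knockdown in normoxia the count of 2 members was 1 with a pseudocount of 64, 0 with the filter at the 75th percentile, 1 with averaged probe sets and 4 at 1.5-fold. Under knockdown in hypoxia the count of 3 was 1 with the pseudocount of 64 and 10 at 1.5-fold. For hypoxia in control cells the count of 2 was 1 with the pseudocount of 64, with the stricter filter and with averaged probe sets, and 6 at 1.5-fold. For hypoxia under the knockdown label the count of 1 was 0 with the stricter filter and 14 at 1.5-fold. The members' median under knockdown in normoxia, -0.05, was 0.015 with quantile and 0.0051 with cyclic loess normalization, 0.014 with averaged probe sets and -0.20 with the stricter filter. The median for hypoxia under the knockdown label, 0.40, was 0.27 with the pseudocount of 64 and 0.61 with the stricter filter. The limma oxygen term called 1 member in place of 0 with quantile normalization, median centring and the pseudocount of 1 (*ISG20*) and with robust moderation (*EIF2AK2*). With the stricter filter, 23 members were left and those of the same sign in both pairs were 9 for the knockdown and 13 for oxygen. The cause of the other changes was not tested. The other 80 summary values moved by less than 0.1 on the log2 scale for a median and by at most 1.5 times for a count. Among them the count under knockdown in hypoxia was 2 with the stricter filter and 4 with the pseudocount of 1, and that for hypoxia in control cells was 3 with the pseudocount of 1. Of 59 values of single members past 2-fold, 53 stayed past it and 6 did not, and none turned in sign. Over all genes, limma called 0 genes for the knockdown term and 0 to 21 under the alternatives, and 280 for the oxygen term and 70 to 492 under the alternatives. The share of all genes at least 2-fold different was 0.974% under knockdown in hypoxia and 1.16% in normoxia, and with pseudocounts of 64 and 1 it was 0.379% and 2.31% in hypoxia and 0.666% and 2.41% in normoxia, and with averaged probe sets 0.543% in hypoxia and 0.676% in normoxia. For hypoxia it was 1.80% under the knockdown label and 3.58% in control cells, and with these pseudocounts 1.00% and 3.43% under the knockdown label and 1.98% and 6.10% in control cells. The members' median difference of the knockdown differences was 0.13 to 0.43 under the alternatives, and 4 or 5 members were at 1 or above. Of all genes, 0.195% were at 1 or above with the pseudocount of 64 and 1.88% with the pseudocount of 1, the lowest and highest shares.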
